A study of Arabidopsis thaliana with 15 samples.

Results

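Transcripts of all nuclear genes were compared between Arabidopsis thaliana seedlings labelled wrky-qm and the wild-type set labelled Col-0_1, with 3 libraries in each group. The plants of wrky-qm carry mutations in both copies of WRKY7, WRKY11, WRKY17, WRKY21 and WRKY39 (genotype wrky7-/-11-/-17-/-21-/-39-/-), and Col-0_1 is the unmutated Col-0 ecotype in whose background the mutant was labelled. Both groups were whole 11-day-old seedlings raised on MS (Murashige and Skoog) plates without any treatment, so root and shoot were measured together. The sources used here give neither the kind and position of each mutation nor the number of lines or of seedlings pooled per library. The comparison took every gene with a mean of at least 1 normalised read in wrky-qm or Col-0_1, which kept 24134 of the 32548 genes listed, while 7165 were listed at 0 in all 6 libraries. The series holds 15 libraries, and a second wild-type set, Col-0_2, also of 3 libraries, was used to see which differences depended on the choice of wild type.

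WRKY proteins are plant transcription factors that bind the W-box, a short DNA element, and steer the response to pathogens and to drought, cold and wounding. The mutated genes all belong to group IId, whose members also bind calmodulin, and whose remaining members are WRKY15 and WRKY74. Some members of the group are known as negative regulators of basal defence. OBERON proteins, which carry a PHD finger that reads histone marks, are known for keeping meristems active in embryos and seedlings. Abscisic acid is the hormone of water shortage and seed maturation, jasmonate that of wounding, and salicylate that of defence against pathogens living on live tissue.

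Library totals were 46402162, 46323666 and 45887436 normalised reads in wrky-qm, against 44049333, 44521412 and 44633457 in Col-0_1. Among genes with a mean of 1000 or more, the median coefficient of variation between replicates was 3.77% in wrky-qm and 3.79% in Col-0_1. Libraries of 1 group correlated on the log2 scale with r between 0.982 and 0.984 across genes, and libraries of the 2 groups with r between 0.954 and 0.956. Genes are not independent replicates, so these values only describe the libraries. Nothing in the labels shows that the 3 libraries of a group were grown apart, so every p-value rests on a spread that may be technical.

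Levels are given as normalised reads, which are not corrected for gene length, so they compare 1 gene between groups and not 1 gene with another. Log2 fold changes are of wrky-qm over Col-0_1 on the log2(normalised reads + 1) scale, with the standard error of the limma fit after the ± sign, while the ± of an averaged level is the SD of its 3 libraries. A gene was called higher or lower at an adjusted p under 0.05 (limma, Benjamini-Hochberg over the 24134 genes), and called 2-fold higher or lower where the log2 fold change was also at least 1 or at most -1. At the adjusted p alone, 10848 genes were called (44.9% of those tested), of which 5689 were higher (23.6%) and 5159 lower (21.4%) in wrky-qm. At 2-fold, 1976 genes were higher (8.19% of those tested) and 849 lower (3.52%). Counts of list members below are to be read against these shares, those of the adjusted p alone or those at 2-fold. The larger changes were mostly rises, with 868 genes higher and 272 lower at 4-fold or more and 352 higher and 65 lower at 8-fold or more. A further 8023 genes differed by less than 2-fold. The median log2 fold change over all genes tested was -0.003, and the groups' libraries did not overlap in 12610 genes (52.2%). Quantile normalization moved that median to -0.104, so genes near no change took the other sign: the share of higher genes among those called was 38.2% with it and 52.4% without it, and at 2-fold it gave 1758 higher and 1082 lower genes. Among the calls, 119 of the genes called 2-fold higher were listed at 0 in every Col-0_1 library and 41 of those called 2-fold lower were listed at 0 in every wrky-qm library, and no fold is given for them.

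**Figure D1:**
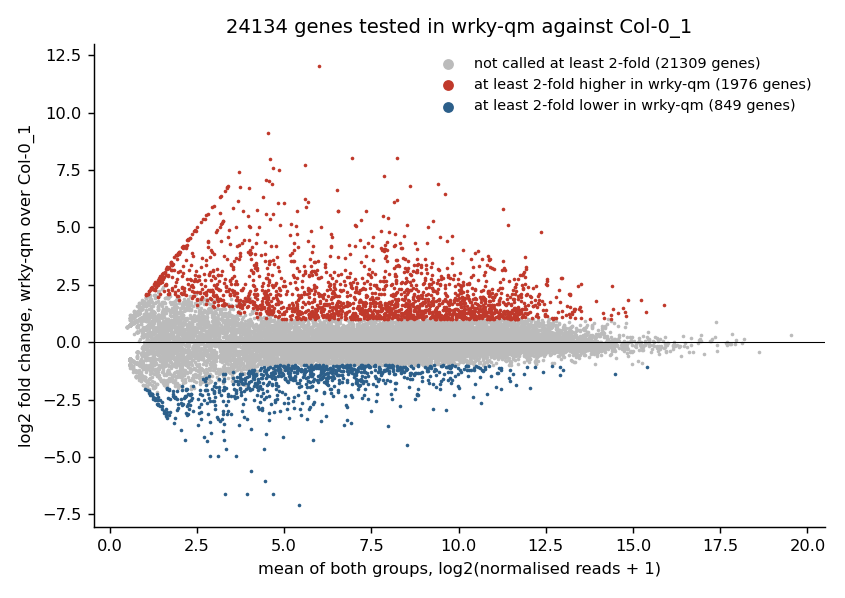
Each point is 1 of the 24134 genes tested, with the mean of both groups on the x axis in log2(normalised reads + 1) and the log2 fold change of wrky-qm over Col-0_1 on the y axis. The 1976 genes called 2-fold higher lie above the line of no change and reach further from it than the 849 called 2-fold lower.

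Against Col-0_2, the same fit called 1833 genes 2-fold higher (7.56% of 24242 tested) and 1175 lower (4.85%). Of the 1976 genes higher than Col-0_1, 1434 (72.6%) were also 2-fold higher than Col-0_2, and of the 849 lower genes 596 (70.2%) were also lower. These comparisons share the wrky-qm libraries, so the shares are a description. Col-0_2 itself had 527 genes 2-fold higher (2.2%) and 216 lower (0.9%) than Col-0_1, and values in Col-0_2 are given below where they change what a difference from Col-0_1 shows.

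The mutated genes were not uniformly low. WRKY17 (AT2G24570) had 162, 189.9 and 199 normalised reads in wrky-qm, against 1129, 1013 and 941 in Col-0_1, a log2 fold change of -2.48 ± 0.11 (adjusted p = 2.31e-12, limma), and no library of the mutant came near a wild-type one. WRKY21 (AT2G30590) had 697, 611 and 571 normalised reads in wrky-qm, against 974, 956 and 969 in Col-0_1, and WRKY39 (AT3G04670) had 957, 1021 and 1020.4 normalised reads in wrky-qm, against 1504, 1435 and 1459 in Col-0_1. Both differed by less than 2-fold, with log2 fold changes of -0.63 ± 0.081 and -0.55 ± 0.06. WRKY7 (AT4G24240) stood at 1757, 1918 and 1856 normalised reads in wrky-qm, against 969, 1010.0 and 878 in Col-0_1, and WRKY11 (AT4G31550) at 2678, 2864 and 3049.7 normalised reads in wrky-qm, against 1901, 1675 and 1572 in Col-0_1, so both were higher in every mutant library, by 0.95 ± 0.065 and 0.74 ± 0.066 on the log2 scale. With the mutation sites not given, reads from a mutated gene show that it was transcribed and say nothing of its protein, and WRKY17 was the 1 of the 5 called 2-fold lower.

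Of the unmutated group IId genes, 1 of 2 was higher in wrky-qm. WRKY15 (AT2G23320) had 2978, 3211 and 3199 normalised reads in wrky-qm, against 862, 698 and 824 in Col-0_1, a log2 fold change of 1.98 ± 0.071 (adjusted p = 1.04e-13, limma), so each mutant library lay above 3 times the highest Col-0_1 library. In Col-0_2 it had 1035, 1056 and 927, where its change was 1.64. WRKY74 (AT5G28650) was low, with 26.7, 29.7 and 56.3 normalised reads in wrky-qm, against 33.5, 31.7 and 7.65 in Col-0_1, and the groups overlapped. All 4 OBERON genes were higher than in Col-0_1. OBE1 (AT3G07780) averaged 4622 ± 219 normalised reads in wrky-qm and 2194 ± 160.5 in Col-0_1 (SD, n = 3 each), and TTA1 (AT1G14740) averaged 7035 ± 344 in wrky-qm and 3189 ± 144 in Col-0_1, log2 fold changes of 1.08 ± 0.055 and 1.14 ± 0.047. OBE2 (AT5G48160) and TTA2 (AT3G63500) rose by 0.54 ± 0.04 and 0.77 ± 0.043, under 2-fold. Against Col-0_2 the changes of OBE1 and TTA1 were 0.86 and 0.83, also under 2-fold.

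**Figure D2:**
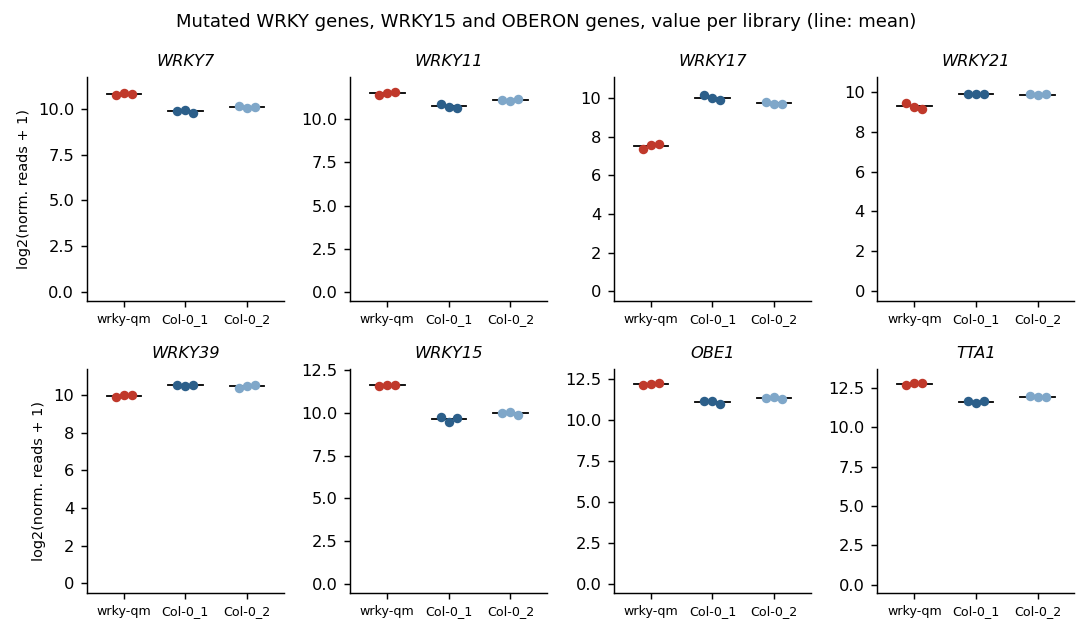
Each panel shows 1 gene with its log2(normalised reads + 1) in every library of wrky-qm, Col-0_1 and Col-0_2, and a line at each group's mean. WRKY17 lies well under both wild-type sets in wrky-qm, WRKY21 and WRKY39 slightly under them, and WRKY7, WRKY11, WRKY15, OBE1 and TTA1 above them.

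The genes beside the mutated loci were also read. AT2G24580 (AT2G24580), the next gene after WRKY17, had 1966, 1800.2 and 1731 normalised reads in wrky-qm, against 612, 639 and 644 in Col-0_1, a log2 fold change of 1.53 ± 0.067. AT2G30600 (AT2G30600), the next gene after WRKY21, had 3998, 3941 and 3856 normalised reads in wrky-qm, against 2439.6, 2534 and 2744 in Col-0_1, but its 3641, 3582 and 3914 normalised reads in Col-0_2 were close to those of wrky-qm. GH9A3 (AT4G24260), 2 genes after WRKY7, averaged 82.2 ± 5.77 in wrky-qm and 30.9 ± 3.65 in Col-0_1, with a change of 0.88 against Col-0_2. HCF153 (AT4G31560), beside WRKY11, and CLPS3 (AT3G04680), beside WRKY39, changed by 0.23 and 0.00 on the log2 scale, and only HCF153 passed the test. AT4G08515 (AT4G08515), before WRKY11, was listed at 0 in all Col-0_1 libraries and reached 13.1, 15.3 and 3.76 in wrky-qm. No source used here says whether the strand of reads was kept, so neighbouring or opposite genes that overlap cannot be told apart.

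Many of the other WRKY genes linked to defence stood higher. Of 28 tested, 12 were 2-fold higher and 2 lower (42.9% and 7.14%, against 8.19% and 3.52% of all genes), with a median log2 fold change of 0.71. WRKY40 (AT1G80840), a pathogen-induced repressor that acts with WRKY18 and WRKY60, had 1116, 1262 and 1171 normalised reads in wrky-qm, against 41.8, 35.9 and 43.0 in Col-0_1, a log2 fold change of 4.85 ± 0.14. Its level in Col-0_2 was 259, 319 and 266, between the other groups. WRKY18 (AT4G31800) had 1806, 1779.8 and 1922 normalised reads in wrky-qm, against 194, 201 and 172 in Col-0_1, and WRKY22 (AT4G01250), a factor downstream of flagellin sensing, had 1158, 1228 and 1244 normalised reads in wrky-qm, against 96.0, 84.7 and 102 in Col-0_1. The log2 fold changes were 3.28 ± 0.088 and 3.67 ± 0.11, and neither gene's groups overlapped. WRKY38 (AT5G22570) averaged 142 ± 24.9 in wrky-qm and 15.5 ± 1.88 in Col-0_1. The largest adjusted p of these genes was 8.25e-08 (limma).

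Genes at several steps of the abscisic acid pathway were higher, most often its transcription factors. NCED3 (AT3G14440), the rate-limiting enzyme of abscisic acid synthesis under drought, had 13541, 14010.2 and 13819 normalised reads in wrky-qm, against 1059, 977 and 1158 in Col-0_1, a log2 fold change of 3.70 ± 0.053 (adjusted p = 8.04e-19, limma). The hydroxylases that break the hormone down were higher as well: CYP707A3 (AT5G45340) had 1209, 1238 and 1415 normalised reads in wrky-qm, against 119, 108 and 102 in Col-0_1, and CYP707A1 (AT4G19230) and CYP707A2 (AT2G29090) changed by 1.37 ± 0.11 and 1.36 ± 0.13 on the log2 scale. In all, 6 of 14 synthesis and breakdown genes were 2-fold higher and none lower, with a median of 1.07. Against Col-0_2, 4 were 2-fold higher, with a median of 0.61, and CYP707A1 changed by 0.51, under 2-fold.

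Few receptors changed by 2-fold. Of 13 tested, 2 were 2-fold higher and 1 lower (15.4% and 7.69%, against 8.19% and 3.52% of all genes), with a median of -0.07. Against both wild-type sets, 1 was higher and 1 lower. PYL7 (AT4G01026) averaged 975 ± 20.6 in wrky-qm and 196 ± 13.6 in Col-0_1, while PYL2 (AT2G26040) averaged 78.3 ± 8.59 in wrky-qm and 209 ± 26.3 in Col-0_1. PYL6 (AT2G40330) stood at 360.3, 432 and 402 normalised reads in wrky-qm, against 165, 142 and 135 in Col-0_1, but Col-0_2, at 448, 413 and 428, did not lie below the mutant.

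Downstream of the receptors, the clade A PP2C phosphatases, which hold the SnRK2 kinases inactive until the hormone is bound, included genes of large difference. HAI1 (AT5G59220) had 16370.2, 15902 and 15559 normalised reads in wrky-qm, against 489, 402 and 489 in Col-0_1, a log2 fold change of 5.12 ± 0.064 (adjusted p = 2.22e-19, limma), or 34.7-fold. HAI2 (AT1G07430) had 5196, 4785 and 4686 normalised reads in wrky-qm, against 469.9, 518 and 491 in Col-0_1, HAB1 (AT1G72770) averaged 9266 ± 95.3 in wrky-qm and 1589.9 ± 91.5 in Col-0_1, and PP2CA (AT3G11410) averaged 25382 ± 798 in wrky-qm and 4729 ± 408 in Col-0_1. Their log2 fold changes were 3.31 ± 0.06, 2.54 ± 0.047 and 2.43 ± 0.051, and each mutant library exceeded every wild-type library. Among the 14 phosphatases and kinases, 7 were 2-fold higher and none lower (median 1.43).

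Transcription factors of the abscisic acid and drought response were higher in 19 of 20 cases at 2-fold (95%, against 8.19% of all genes), none was lower, and the median was 2.56. Against Col-0_2, 18 of them were 2-fold higher. NAC019 (AT1G52890) had 2116, 2059 and 2263 normalised reads in wrky-qm, against 77.2, 64.7 and 46.0 in Col-0_1, and its close relative NAC055 (AT3G15500) had 544, 506 and 514 normalised reads in wrky-qm, against 41.0, 44.8 and 11.2 in Col-0_1. MYB96 (AT5G62470), which acts on cuticular wax genes, had 5459.7, 5417 and 5577 normalised reads in wrky-qm, against 366, 372 and 376 in Col-0_1, and RD26 (AT4G27410), a NAC factor induced by dehydration, had 6545, 6741 and 6811 normalised reads in wrky-qm, against 536, 574 and 519.6 in Col-0_1. These are log2 fold changes of 5.11 ± 0.15, 4.19 ± 0.35, 3.88 ± 0.054 and 3.62 ± 0.053, with a largest adjusted p of 1.97e-08 (limma).

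Transcripts of proteins that protect cells from drying were higher as well. In the list of dehydration and cold protection genes, 18 of 27 were 2-fold higher and none lower (median 1.31), and against Col-0_2 14 were higher and 1 lower. LEA7 (AT1G52690), a late embryogenesis abundant protein, had 7866, 7288 and 6977 normalised reads in wrky-qm, against 56.9, 70.5 and 58.2 in Col-0_1. LEA4-5 (AT5G06760), of another LEA family, had 7648, 7334 and 7110.3 normalised reads in wrky-qm, against 94.2, 74.5 and 83.0 in Col-0_1. RD29B (AT5G52300), a classical abscisic acid reporter gene, had 28868, 27536 and 27688 normalised reads in wrky-qm, against 944, 978 and 1093 in Col-0_1, and TSPO (AT2G47770), a membrane protein induced by abscisic acid, had 2885, 3081 and 2485 normalised reads in wrky-qm, against 24.9, 13.7 and 16.3 in Col-0_1. Log2 fold changes were 6.88 ± 0.091, 6.44 ± 0.085, 4.80 ± 0.05 and 7.23 ± 0.18, and in none of them did a wild-type library come near a mutant one. P5CS1 (AT2G39800), the enzyme that limits proline synthesis, averaged 107046 ± 1423 normalised reads in wrky-qm and 34509 ± 531 in Col-0_1 (SD, n = 3 each), a log2 fold change of 1.63 ± 0.037, while 1 of 8 proline genes was 2-fold higher.

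**Figure D3:**
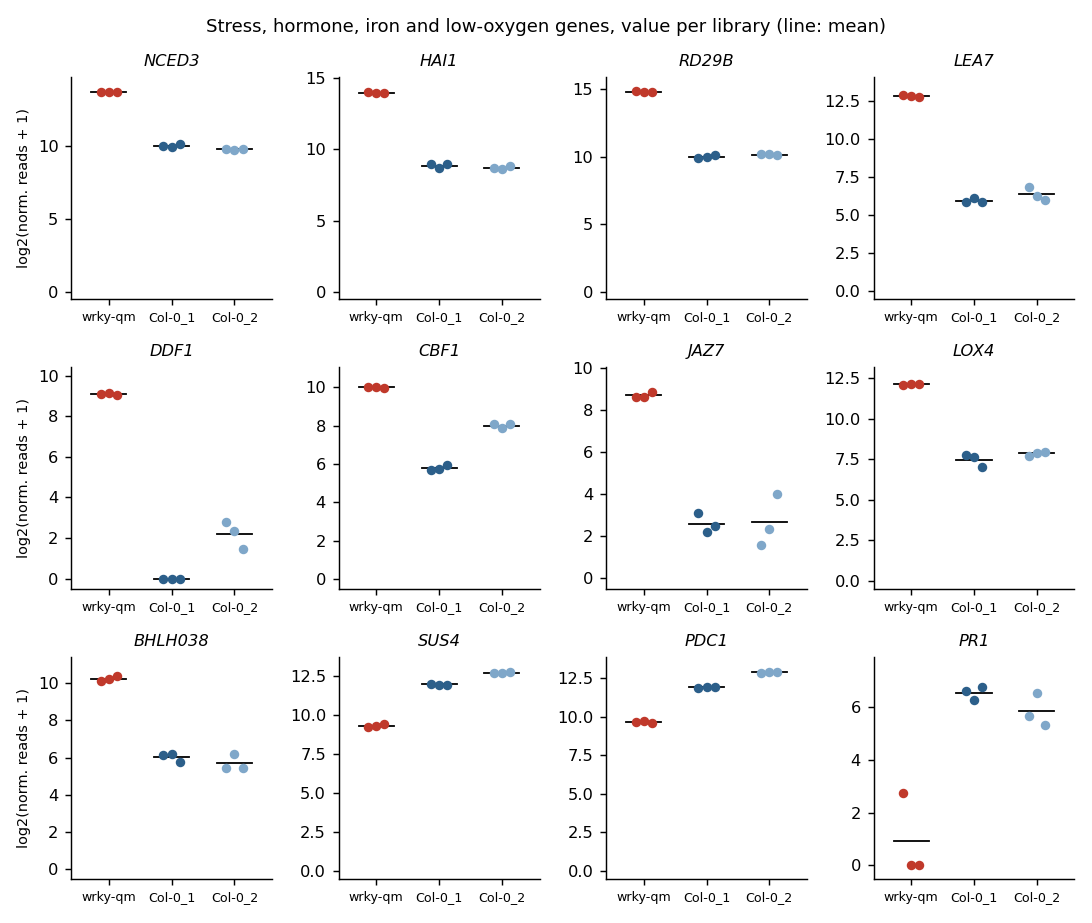
Each panel shows 1 gene with its log2(normalised reads + 1) in every library of wrky-qm, Col-0_1 and Col-0_2, and a line at each group's mean on that scale. NCED3, HAI1, RD29B, LEA7, DDF1, CBF1, JAZ7, LOX4 and BHLH038 are higher in all 3 wrky-qm libraries than in either wild-type set, and SUS4, PDC1 and PR1 are lower.

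The sequence before the gene start was read from RefSeq assembly TAIR10.1 for the 22896 protein-coding genes tested, with a window of 250 bases ending at the base before the annotated start. The letters searched on both strands were the W-box core TTGAC, the full W-box TTGACC or TTGACT, the abscisic acid response element core ACGTG, the G-box CACGTG, which holds an ACGTG on each strand, and the dehydration response element core CCGAC. At least 1 TTGAC stood before 55.6% of the 1923 genes 2-fold higher, 40.4% of the 816 genes 2-fold lower and 45.3% of all. TTGACC or TTGACT stood before 37.4% of the higher genes, 22.5% of the lower genes and 28.6% of all. ACGTG stood before 37.4% of the higher, 29.5% of the lower and 23.9% of all, and CACGTG before 14.8%, 5.64% and 7.22%. CCGAC stood before 14.3%, 8.95% and 12.5%, the smallest gap of these motifs between the higher genes and all. In the 343 genes at least 8-fold higher, ACGTG reached 50.7%, CACGTG 25.7% and CCGAC 20.7%. In these genes TTGAC, at 55.4%, stayed near the share of all higher genes, and TTGACC or TTGACT stood at 33.8%. With a window of 1000 bases, TTGAC was found before 91.5% of the higher, 86.6% of the lower and 88.2% of all genes, and ACGTG before 67.7%, 59.8% and 55.5%. A match is a run of letters, not a measured binding site, and the shares were not tested.

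**Figure D4:**
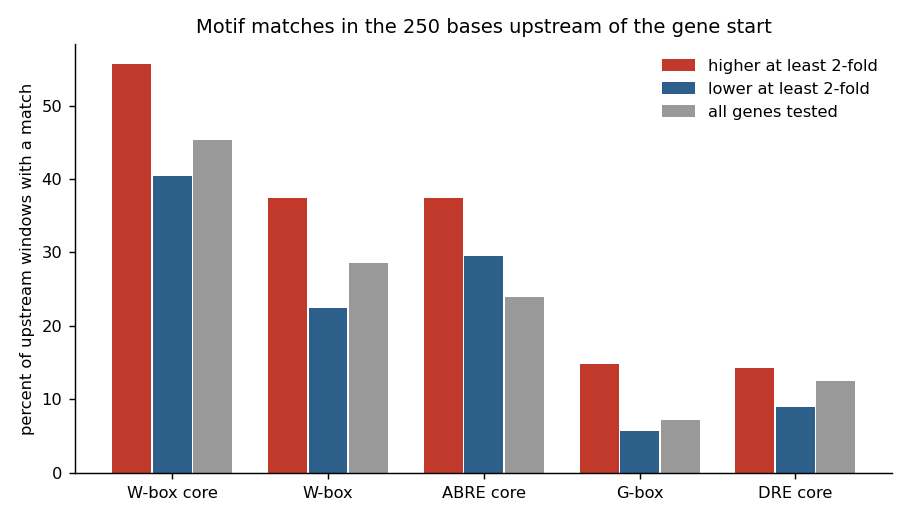
Bars give the percent of 250-base windows before the gene start with at least 1 match to each motif, for genes 2-fold higher in wrky-qm, genes 2-fold lower and all protein-coding genes tested. The red bars of the higher genes exceed the grey bars of all genes for all 5 motifs, most in proportion for the G-box (14.8% and 7.22%) and least for the dehydration response element core (14.3% and 12.5%).

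The windows of 7 genes are shown: the relative WRKY15, members of the abscisic acid group with large changes, an iron regulator and a fermentation enzyme that was lower. They were picked by hand and not by rank. TSPO (7.23) changed more than any of them and NAC019 (5.11) more than RD29B (4.80), and neither is shown. Capitals mark the cores of the W-box, of the abscisic acid response element and of the dehydration response element on either strand. Each sequence runs 5′ to 3′ on the strand of its gene, and coordinates are of TAIR10.1. WRKY15 (chr2:9924636-9924885, plus strand) held 2 full W-boxes and 1 G-box, which gives 2 matches of ACGTG. RD29B (chr5:21236771-21237020, plus strand) held 4 matches of ACGTG, LEA7 (chr1:19619474-19619723, plus strand) 5 and LEA4-5 (chr5:2090431-2090680, minus strand) 4. LEA7 and LEA4-5 each held 1 G-box, which gives 2 of their matches, and RD29B held none. RD29B, LEA7, LEA4-5 and PDC1 each held 1 match of CCGAC, and LEA4-5 held 2 of TTGAC. BHLH038 (chr3:21085246-21085495, minus strand) held 1 G-box and with it 2 matches of ACGTG. PDC1 (chr4:15954804-15955053, minus strand) held 2 full W-boxes, and HAI1 (chr5:23896940-23897189, minus strand), the gene with the largest change among the phosphatases, none of the motifs.
WRKY15: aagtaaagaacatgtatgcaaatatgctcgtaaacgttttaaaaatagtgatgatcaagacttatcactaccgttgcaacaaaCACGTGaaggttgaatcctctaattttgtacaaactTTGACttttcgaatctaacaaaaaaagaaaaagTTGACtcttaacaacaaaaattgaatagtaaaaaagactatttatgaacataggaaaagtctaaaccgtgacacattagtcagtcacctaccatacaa
RD29B: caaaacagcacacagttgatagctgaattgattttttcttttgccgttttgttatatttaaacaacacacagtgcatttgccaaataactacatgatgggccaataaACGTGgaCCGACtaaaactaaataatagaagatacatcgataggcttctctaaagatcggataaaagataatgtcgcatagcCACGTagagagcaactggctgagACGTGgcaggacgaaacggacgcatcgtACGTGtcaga
LEA7: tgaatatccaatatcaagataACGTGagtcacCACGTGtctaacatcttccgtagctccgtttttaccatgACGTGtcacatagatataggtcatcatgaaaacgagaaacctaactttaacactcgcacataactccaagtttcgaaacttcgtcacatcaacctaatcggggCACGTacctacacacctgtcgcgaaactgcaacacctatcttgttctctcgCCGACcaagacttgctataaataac
LEA4-5: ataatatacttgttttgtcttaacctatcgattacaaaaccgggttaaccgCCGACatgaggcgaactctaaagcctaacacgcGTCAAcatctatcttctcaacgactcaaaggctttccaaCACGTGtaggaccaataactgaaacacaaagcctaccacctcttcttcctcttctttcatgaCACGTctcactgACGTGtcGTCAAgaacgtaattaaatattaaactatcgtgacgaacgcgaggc
BHLH038: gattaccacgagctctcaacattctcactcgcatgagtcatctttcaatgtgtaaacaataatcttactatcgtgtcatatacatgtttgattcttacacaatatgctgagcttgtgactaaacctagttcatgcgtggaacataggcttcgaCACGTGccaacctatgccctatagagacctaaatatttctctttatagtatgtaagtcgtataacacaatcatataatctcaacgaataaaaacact
HAI1: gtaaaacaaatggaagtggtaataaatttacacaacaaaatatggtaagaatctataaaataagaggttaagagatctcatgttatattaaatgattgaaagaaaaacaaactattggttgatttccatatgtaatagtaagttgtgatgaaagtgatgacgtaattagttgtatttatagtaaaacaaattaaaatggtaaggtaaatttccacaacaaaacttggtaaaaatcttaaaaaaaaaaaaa
PDC1: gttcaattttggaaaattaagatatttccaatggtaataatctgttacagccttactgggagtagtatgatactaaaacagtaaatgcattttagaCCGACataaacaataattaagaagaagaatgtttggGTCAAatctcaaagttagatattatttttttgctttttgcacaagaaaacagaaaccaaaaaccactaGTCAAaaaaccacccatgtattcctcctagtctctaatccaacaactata

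The CBF, DDF and ZAT factors, which switch on cold, salt and drought genes through the dehydration response element or repress growth under stress, were 2-fold higher in 14 of 17 cases and lower in none (median 2.19, and 1.96 without the 3 members listed at 0 in Col-0_1), and in 12 cases against Col-0_2. DDF1 (AT1G12610), a factor that turns on a gibberellin-degrading enzyme, was listed at 0 in every Col-0_1 library and reached 547, 574 and 525 normalised reads in wrky-qm. DDF2 (AT1G63030) was likewise listed at 0 in Col-0_1 and reached 155, 217 and 142 in wrky-qm, and CBF4 (AT5G51990), at 0 in Col-0_1 as well, reached 104, 122 and 86.7. In Col-0_2, DDF1 had 5.99, 4.07 and 1.78 and DDF2 was again at 0. CBF1 (AT4G25490), a cold-induced member, had 1048, 1049.6 and 1006 normalised reads in wrky-qm, against 50.2, 51.6 and 60.4 in Col-0_1, a log2 fold change of 4.24 ± 0.14, and 267, 231 and 268 in Col-0_2, so both wild-type sets lay under the mutant but apart from each other. CBF1 and its tandem neighbours are close copies, and how shared reads were assigned is not given.

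Seed genes were read in these seedlings. Of 9 seed storage proteins tested, 8 were 2-fold higher in wrky-qm and none was lower, and 6 of the 9 were listed at 0 in all libraries of 1 group, so their median is not used as a size. CRC (AT4G28520), a 12S cruciferin, reached 4119.8, 4292 and 4156 normalised reads in wrky-qm and was listed at 0 in all Col-0_1 libraries, but it had 52.9, 43.7 and 36.8 in Col-0_2. CRA1 (AT5G44120), another cruciferin, had 4659.6, 4876 and 4813 normalised reads in wrky-qm, against 17.1, 23.3 and 13.5 in Col-0_1, and 409.5, 351 and 312 in Col-0_2. The 2S albumin SESA1 (AT4G27140) had 94.0, 96.0 and 111 normalised reads in wrky-qm, against 0, 0 and 1.88 in Col-0_1, and SESA2 (AT4G27150) reached 97.4, 64.5 and 83.0 in wrky-qm and was at 0 in both wild-type sets. The summed level of the storage genes was 9078.4 to 9469.4 normalised reads in wrky-qm, 17.2 to 25.1 in Col-0_1 and 355 to 469 in Col-0_2. Among the embryo regulators, late embryogenesis proteins and oleosins, 11 of 13 were 2-fold higher and none lower (median 2.23). OLEO1 (AT4G25140), which coats seed oil bodies, had 258, 225 and 255 normalised reads in wrky-qm, against 0.932, 0 and 3.75 in Col-0_1, M17 (AT2G41260) had 381, 347 and 376 normalised reads in wrky-qm, against 1.91, 1.86 and 0 in Col-0_1, and EM1 (AT3G51810) had 56.9, 54.1 and 52.1 normalised reads in wrky-qm, against 1.93, 0 and 0 in Col-0_1. Against Col-0_2, 8 storage genes and 9 of the embryo group were 2-fold higher. Whether remnants of seed were collected with the seedlings was not tested.

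Most feedback repressors of jasmonate and part of its synthesis genes were higher, while its output branches were mixed. LOX4 (AT1G72520), a lipoxygenase at the start of synthesis, had 4365, 4461 and 4503 normalised reads in wrky-qm, against 217, 196 and 131 in Col-0_1. LOX3 (AT1G17420), another lipoxygenase, had 5957, 6027 and 5834 normalised reads in wrky-qm, against 673, 607 and 549 in Col-0_1. OPR3 (AT2G06050), the reductase of the peroxisomal step, averaged 10108 ± 137 in wrky-qm and 1963 ± 73.0 in Col-0_1, and OPCL1 (AT1G20510) averaged 9301 ± 89.7 in wrky-qm and 1754 ± 76.2 in Col-0_1. Log2 fold changes of LOX4, LOX3, OPR3 and OPCL1 were 4.64 ± 0.13, 3.29 ± 0.064, 2.36 ± 0.042 and 2.41 ± 0.044, and 7 of 19 synthesis genes were 2-fold higher and none lower (median 0.60), and 5 were higher against Col-0_2. The JAZ repressors and the enzymes that inactivate jasmonoyl-isoleucine were 2-fold higher in 14 of 18 cases, with a median of 2.90, and in 14 against Col-0_2. JAZ7 (AT2G34600) had 389, 394 and 467 normalised reads in wrky-qm, against 7.66, 3.63 and 4.52 in Col-0_1, JAZ5 (AT1G17380) had 1453, 1538 and 1440.1 normalised reads in wrky-qm, against 56.0, 49.7 and 60.4 in Col-0_1, and CYP94B3 (AT3G48520), an oxidase of the active hormone, had 1915, 1864 and 1982 normalised reads in wrky-qm, against 88.2, 93.2 and 108 in Col-0_1. JAZ8 (AT1G30135) averaged 136 ± 22.3 in wrky-qm and 1.54 ± 0.577 in Col-0_1. The largest adjusted p of these 4 genes was 2.56e-09 (limma).

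Of 13 genes on the MYC branch, which serves wounding, 2 were 2-fold higher (15.4%, against 8.19% of all genes) and none lower. VSP2 (AT5G24770), its standard reporter, averaged 8612 ± 411 in wrky-qm and 9754 ± 878 in Col-0_1, a log2 fold change of -0.18 ± 0.055, and JAM1 (AT2G46510), a bHLH repressor of the branch, averaged 3219 ± 110.0 in wrky-qm and 837 ± 70.8 in Col-0_1, a change of 1.95 ± 0.063. On the ERF branch, shared with ethylene, 3 of 13 were 2-fold higher and 4 lower. PDF1.3 (AT2G26010), a defensin, had 0, 0.0034 and 1.95 normalised reads in wrky-qm, against 136, 176 and 113 in Col-0_1, and 1458, 1701 and 1688 in Col-0_2. PR3 (AT3G12500), a basic chitinase, had 929, 944 and 923 normalised reads in wrky-qm, against 1995, 2129 and 2010.4 in Col-0_1, a change of -1.13 ± 0.056. ERF6 (AT4G17490) had 937, 1047 and 836 normalised reads in wrky-qm, against 232, 181 and 138 in Col-0_1, but 762, 754 and 779.8 in Col-0_2, where the difference of 0.29 was under 2-fold. The choice of wild type moved the median of this list more than that of any other of the 65: against Col-0_2 none of the 13 was 2-fold higher and 9 were lower, and the median was -1.70 in place of 0.21. The PDF1 defensins are near-identical copies, so the split of reads between them is uncertain.

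Several regulators of salicylate defence were higher, while several pathogenesis-related genes, PR1 among them, were lower. CBP60G (AT5G26920), a calmodulin-binding factor that turns on salicylate synthesis, had 1116, 1011 and 1157 normalised reads in wrky-qm, against 117, 132 and 118 in Col-0_1. SARD1 (AT1G73805), its partner in that role, had 456, 397 and 404 normalised reads in wrky-qm, against 60.7, 59.9 and 73.3 in Col-0_1. CBP60A (AT5G62570) averaged 3936 ± 25.9 in wrky-qm and 867 ± 53.8 in Col-0_1, and NDR1 (AT3G20600), which links resistance proteins to signalling, averaged 590.5 ± 32.3 in wrky-qm and 141 ± 18.7 in Col-0_1. Of 15 regulators, 8 were 2-fold higher and none lower (median 1.19), and 5 were higher against Col-0_2. Synthesis genes moved less, with 2 of 15 higher and 1 lower (median 0.21). ICS1 (AT1G74710), the isochorismate synthase that makes most of the hormone, averaged 912 ± 29.3 in wrky-qm and 642 ± 3.46 in Col-0_1, a log2 fold change of 0.50 ± 0.071.

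PR1 (AT2G14610), the usual reporter of salicylate, had 5.74, 0.01 and 0 normalised reads in wrky-qm, against 96.9, 75.2 and 107 in Col-0_1, a log2 fold change of -5.62 ± 0.64 (adjusted p = 9.35e-07, limma). PRB1 (AT2G14580), its basic relative, had 0, 2.04 and 3.9 normalised reads in wrky-qm, against 170.1, 171 and 148 in Col-0_1. BGL2 (AT3G57260), the glucanase also called PR2, had 23.1, 33.6 and 30.9 normalised reads in wrky-qm, against 420.4, 296 and 379.7 in Col-0_1, and 115, 113 and 108 in Col-0_2. The summed level of the 10 pathogenesis-related output genes was 22171 to 23795 normalised reads in wrky-qm and 15799 to 16129 in Col-0_1, so higher in the mutant. In Col-0_2 the sum was 27296 to 28208. Of the 10, 5 were 2-fold lower and 1 higher (median -1.22), and against Col-0_2 6 were lower and 1 higher. The higher one, GRX480 (AT1G28480), a glutaredoxin that acts between salicylate and jasmonate, averaged 82.8 ± 10.6 in wrky-qm and 3.1 ± 2.84 in Col-0_1.

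Many early genes of pattern-triggered immunity were higher, and so were some of the receptors upstream of them. Of 25 signalling and early response genes, 14 were 2-fold higher and none lower (median 1.60, and 0.78 against Col-0_2). PHI-1 (AT1G35140) had 911, 915 and 806 normalised reads in wrky-qm, against 109, 89.5 and 78.0 in Col-0_1, CPK28 (AT5G66210), a calcium-dependent kinase that dampens immune signalling, had 6919, 6871 and 7196 normalised reads in wrky-qm, against 1096, 1122 and 1139.5 in Col-0_1, and MYB51 (AT1G18570), a regulator of indole glucosinolates, had 1381, 1410.1 and 1476 normalised reads in wrky-qm, against 252, 229.7 and 248 in Col-0_1. PUB23 (AT2G35930), a ubiquitin ligase that attenuates the response, averaged 780.5 ± 52.0 in wrky-qm and 163 ± 8.92 in Col-0_1. Among 22 receptors and partner kinases, 7 were higher and 1 lower (median 0.56). LYK5 (AT2G33580), a chitin receptor, averaged 1319 ± 164 in wrky-qm and 249 ± 18.4 in Col-0_1, SOBIR1 (AT2G31880) averaged 4236 ± 96.8 in wrky-qm and 951 ± 14.6 in Col-0_1, and PEPR1 (AT1G73080), a receptor of danger peptides, averaged 5202 ± 91.3 in wrky-qm and 1626 ± 41.6 in Col-0_1. Cysteine-rich receptor-like kinases were 2-fold higher in 12 of 36 cases and lower in 4 (33.3% and 11.1%, against 8.19% and 3.52% of all genes). CRK14 (AT4G23220) had 911, 864 and 891 normalised reads in wrky-qm, against 39.6, 54.5 and 70.8 in Col-0_1, and CRK11 (AT4G23190) averaged 2243 ± 209 in wrky-qm and 311 ± 47.5 in Col-0_1. Touch and calmodulin-like genes, the list kept as a sign of handling, were 2-fold higher in 6 of 12 cases and lower in 1. Their sum was 18742 to 19577 normalised reads in wrky-qm, 6803.9 to 8117 in Col-0_1 and 12132 to 12789 in Col-0_2. TCH3 (AT2G41100) had 4393, 4856 and 4223 normalised reads in wrky-qm, against 315, 279.8 and 248 in Col-0_1, and 1021, 1030.4 and 1132 in Col-0_2. The part of handling in the early response genes was not tested.

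Lists of defence metabolism differed in how many members changed. Of 18 genes of camalexin and indole glucosinolates, 2 were 2-fold higher and 1 lower (11.1% and 5.56%, against 8.19% and 3.52% of all genes). PAD3 (AT3G26830), the last enzyme of camalexin, averaged 201 ± 24.5 in wrky-qm and 473 ± 29.7 in Col-0_1, a log2 fold change of -1.23 ± 0.13. Of 15 aliphatic glucosinolate genes, 12 were lower and 1 higher by the adjusted p alone (21.4% and 23.6% of all genes were), with a median of -0.35. At 2-fold 3 were lower (20%, against 3.52% of all genes), led by MAM3 (AT5G23020), a chain-elongation enzyme, with 1212, 1173 and 1136 normalised reads in wrky-qm, against 4879, 4791 and 4828 in Col-0_1. MYB76 (AT5G07700), a regulator of that pathway, had 148, 134 and 125 normalised reads in wrky-qm, against 274, 316 and 246 in Col-0_1, but 122, 129 and 103 in Col-0_2, so this fall rests on Col-0_1. Against Col-0_2, 1 of the 15 was 2-fold lower and the median was -0.04. Of 18 flavonoid genes, 2 were 2-fold higher and 1 lower (11.1% and 5.56%, against 8.19% and 3.52% of all genes), with a median of -0.29. Against Col-0_2, 6 were higher and 1 lower and the median was 0.49, so the direction of this list turned with the wild type. PAP1 (AT1G56650), an anthocyanin regulator, had 464, 473 and 449.8 normalised reads in wrky-qm, against 119, 171 and 134 in Col-0_1, and 111, 69.2 and 57.8 in Col-0_2. Root triterpene genes were 2-fold lower in 4 of 9 cases and higher in none (44.4% lower, against 3.52% of all genes), with a median of -0.98, and against Col-0_2 6 were lower and 1 higher, among them MRN1 (AT5G42600), the marneral synthase, with 0.906, 2.04 and 1.93 normalised reads in wrky-qm, against 266, 246 and 247 in Col-0_1, and THAD (AT5G47990), with 108, 149.9 and 108 normalised reads in wrky-qm, against 639, 568 and 528 in Col-0_1.

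Part of the iron uptake genes were higher, while genes of iron storage and long-distance transport moved in both directions. The 4 bHLH factors of subgroup Ib, which partner FIT and are induced by iron shortage, were all higher. BHLH038 (AT3G56970) had 1096, 1193 and 1322 normalised reads in wrky-qm, against 68.5, 72.3 and 54.4 in Col-0_1, a log2 fold change of 4.2 ± 0.14 (adjusted p = 3.73e-14, limma). BHLH039 (AT3G56980) averaged 933 ± 93.2 in wrky-qm and 93.7 ± 12.6 in Col-0_1, BHLH100 (AT2G41240) averaged 797 ± 55.9 in wrky-qm and 108 ± 10.1 in Col-0_1, and BHLH101 (AT5G04150) averaged 314 ± 30.0 in wrky-qm and 36.0 ± 10.8 in Col-0_1. In the uptake list 11 of 24 were 2-fold higher and none lower (median 1.01), and against Col-0_2 likewise 11 and none. Downstream, IRT1 (AT4G19690), the root iron transporter, averaged 1360.0 ± 103 in wrky-qm and 776 ± 48.0 in Col-0_1, a change of 0.81 against Col-0_1 and 2.15 against Col-0_2, and FRO2 (AT1G01580), the ferric reductase, averaged 1074 ± 83.5 in wrky-qm and 453 ± 48.9 in Col-0_1. Of 12 storage and long-distance genes, 3 were 2-fold lower and none higher, and by the adjusted p alone 7 were lower and 3 higher. Their summed level was 16976 to 18091 normalised reads in wrky-qm and 13877 to 14568 in Col-0_1, so higher in the mutant, but 20452.5 to 20993 in Col-0_2. NAS3 (AT1G09240), a nicotianamine synthase, had 19.1, 55.0 and 34.7 normalised reads in wrky-qm, against 440.2, 350.2 and 404 in Col-0_1, and 1562, 1338 and 1441 in Col-0_2. YSL1 (AT4G24120) averaged 295 ± 60.5 in wrky-qm and 828 ± 43.5 in Col-0_1. FER1 (AT5G01600), a ferritin, went the other way, at 8419 ± 380.4 in wrky-qm and 4382 ± 88.3 in Col-0_1, a difference under 2-fold.

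Other nutrient genes showed single large changes within lists that did not move together. SULTR1;1 (AT4G08620), a root sulphate importer, had 1619, 1539 and 1523 normalised reads in wrky-qm, against 157, 94.2 and 139 in Col-0_1. NRT1.5 (AT1G32450), which loads nitrate into the xylem, averaged 2126 ± 39.2 in wrky-qm and 8537 ± 164 in Col-0_1, while NRT1.8 (AT4G21680), which unloads it, averaged 1322 ± 59.3 in wrky-qm and 149 ± 23.9 in Col-0_1 and NRT2.1 (AT1G08090), a high-affinity importer, averaged 2264 ± 59.1 in wrky-qm and 598 ± 7.79 in Col-0_1. Log2 fold changes were 3.61 ± 0.14, -2.0 ± 0.041, 3.15 ± 0.11 and 1.92 ± 0.059. NRT1.8 had 551, 667 and 701 normalised reads in Col-0_2, where its change was 1.05. Over the lists, 2 of 13 sulphate genes, 5 of 19 nitrate genes and 2 of 26 phosphate genes were 2-fold higher (15.4%, 26.3% and 7.69%, against 8.19% of all genes). The numbers lower were 0, 1 and 4 (0%, 5.26% and 15.4%, against 3.52% of all genes). SPX3 (AT2G45130) and MGD3 (AT2G11810), both induced by phosphate shortage, averaged 10.8 ± 5.62 in wrky-qm and 60.7 ± 10 in Col-0_1 and 79.4 ± 6.97 in wrky-qm and 249 ± 36.2 in Col-0_1. PHT1;2 (AT5G43370), a phosphate transporter of the same list, went the other way, at 124 ± 11.4 in wrky-qm and 12.7 ± 4.53 in Col-0_1. Its log2 fold change of 3.24 ± 0.33 was the largest rise of that list. ASN1 (AT3G47340), the asparagine synthetase raised when sugar runs short, had 14753, 14807 and 15174 normalised reads in wrky-qm, against 2513, 2317 and 2345 in Col-0_1, and TPS11 (AT2G18700) had 8442, 8699.5 and 8519 normalised reads in wrky-qm, against 1578, 1511 and 1502 in Col-0_1. Sugar starvation genes were 2-fold higher in 9 of 24 cases and lower in none, with a median of 0.39, and against Col-0_2 6 were higher and 1 lower.

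Genes of the low-oxygen response were lower. PDC1 (AT4G33070), a pyruvate decarboxylase of fermentation, had 809, 866 and 789.5 normalised reads in wrky-qm, against 3735, 3989 and 3966 in Col-0_1, and SUS4 (AT3G43190), a sucrose synthase, had 597, 632 and 679 normalised reads in wrky-qm, against 4151, 3981 and 3909 in Col-0_1. ADH1 (AT1G77120), the alcohol dehydrogenase, had 1786, 1647 and 1646 normalised reads in wrky-qm, against 5766, 6350.2 and 6231 in Col-0_1. PCO2 (AT5G39890), an oxygen-sensing cysteine oxidase, had 165, 129.8 and 128 normalised reads in wrky-qm, against 534, 586 and 622 in Col-0_1, and SAD6 (AT1G43800) averaged 603 ± 31.3 in wrky-qm and 3129 ± 25.2 in Col-0_1. The log2 fold changes were -2.25 ± 0.055, -2.66 ± 0.059, -1.85 ± 0.05, -2.04 ± 0.13 and -2.38 ± 0.058, with a largest adjusted p of 6.19e-10 (limma). Of 17 genes tested, 11 were 2-fold lower (64.7%, against 3.52% of all genes) and none higher, with a median of -1.54. The difference was larger against Col-0_2, where 12 were lower and the median was -2.09. The constitutive regulators of the response did not follow: RAP2.12 (AT1G53910), RAP2.2 (AT3G14230) and RAP2.3 (AT3G16770) changed by -0.19, 0.24 and 0.56 on the log2 scale.

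Many root hair genes were lower too. RHD6 (AT1G66470), the factor that sets root hair fate, had 34.4, 52.0 and 31.7 normalised reads in wrky-qm, against 126, 133 and 143 in Col-0_1, and XTH14 (AT4G25820), a wall enzyme of hairs, had 458, 537 and 522 normalised reads in wrky-qm, against 1387, 1594 and 1502 in Col-0_1. WER (AT5G14750), which marks non-hair cells, averaged 31.4 ± 4.71 in wrky-qm and 89.6 ± 16.0 in Col-0_1, and LRX1 (AT1G12040) and COW1 (AT4G34580), needed for hair growth, changed by -1.04 ± 0.087 and -1.09 ± 0.098 (-0.95 for COW1 against Col-0_2). Of 19 genes, 10 were 2-fold lower and none higher (median -1.01), and 8 were lower against Col-0_2. The summed level was 4571 to 4768 normalised reads in wrky-qm, 8215.0 to 8506 in Col-0_1 and 8622 to 8837 in Col-0_2. In whole seedlings, fewer cells of a type and less RNA per cell cannot be told apart. The endodermal list of Casparian strip and suberin genes summed to 9280.2 to 9544 in wrky-qm and 10600.5 to 11142 in Col-0_1, with 1 of 18 genes 2-fold lower and none higher. No member of either list was listed at 0 in a whole group. HORST (AT5G58860), a suberin hydroxylase, averaged 1887 ± 99.6 in wrky-qm and 1985 ± 96.0 in Col-0_1 and did not pass the test. Root meristem and vascular genes were 2-fold lower in 4 of 21 cases (19%, against 3.52% of all genes). By the adjusted p alone 12 were lower, against 21.4% of all genes, and none was higher. PLT2 (AT1G51190), a root stem cell factor, had 24.2, 30.6 and 21.2 normalised reads in wrky-qm, against 69.4, 55.1 and 67.6 in Col-0_1, and TMO7 (AT1G74500) had 138, 115 and 94.3 normalised reads in wrky-qm, against 352, 349 and 261 in Col-0_1. In Col-0_2, PLT2 had 27.0, 31.6 and 73.0, which overlapped wrky-qm, and TMO7 had 221, 202 and 189, a difference of -0.82. Against Col-0_2, 1 gene of this list was 2-fold lower.

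Growth machinery changed by small amounts. All 13 ribosome biogenesis genes were lower by the adjusted p, against 21.4% of all genes. None was lower by 2-fold, and the median was -0.42 against -0.003 over all genes. NUC1 (AT1G48920), the nucleolin of the nucleolus, averaged 16068 ± 763 in wrky-qm and 21862 ± 371 in Col-0_1, and RPS6A (AT4G31700) averaged 10681 ± 162 in wrky-qm and 14288 ± 423 in Col-0_1. Of 18 DNA replication genes, 14 were lower and 2 higher by the adjusted p (21.4% and 23.6% of all genes were), none by 2-fold. Their median was -0.53 against Col-0_1 and -0.27 against Col-0_2. MCM2 (AT1G44900), of the replicative helicase, averaged 1039 ± 32.0 in wrky-qm and 1632 ± 119 in Col-0_1, and PCNA1 (AT1G07370) averaged 723 ± 60.3 in wrky-qm and 1188 ± 61.5 in Col-0_1. The 20 mitotic genes had a median of -0.03, with 2 lower and none higher. Photosynthesis genes, 36 in number, summed to 5237373 to 5401583 normalised reads in wrky-qm and 5183955 to 5481953 in Col-0_1, ranges that overlapped, and 1 was 2-fold lower and none higher. By the adjusted p alone 15 were lower and 6 higher (median -0.10, and 0.09 against Col-0_2). LHCB1.3 (AT1G29930), of high level, averaged 852608 ± 28359 in wrky-qm and 683382 ± 12037 in Col-0_1. Of 18 stomatal lineage genes 1 was 2-fold lower, and by the adjusted p alone 9 were lower and 1 higher (median -0.37, and -0.11 against Col-0_2). Of 18 shoot meristem genes 5 were higher and 2 lower by the adjusted p. At 2-fold 1 was higher, KNAT2 (AT1G70510), at 74.4, 101 and 65.5 normalised reads in wrky-qm, against 32.2, 32.3 and 36.6 in Col-0_1.

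Hormone pathways of growth showed changes at single steps. GA2OX6 (AT1G02400), which breaks gibberellin down, had 2055, 2099 and 2020.3 normalised reads in wrky-qm, against 218, 245 and 240.0 in Col-0_1, GA3OX2 (AT1G80340), which makes the active form, had 7.43, 8.17 and 8.7 normalised reads in wrky-qm, against 54.7, 89.1 and 81.4 in Col-0_1, and RGL3 (AT5G17490), a DELLA repressor, had 1363, 1455 and 1282 normalised reads in wrky-qm, against 187, 186 and 223 in Col-0_1. These are log2 fold changes of 3.13 ± 0.078, -3.04 ± 0.37 and 2.78 ± 0.098. In this list of 20, 5 were 2-fold higher and 1 lower (25% and 5%, against 8.19% and 3.52% of all genes). BR6OX2 (AT3G30180), the last oxidase of brassinosteroid synthesis, had 209, 218 and 189 normalised reads in wrky-qm, against 1125, 979 and 959 in Col-0_1, and 4 of 18 brassinosteroid genes were lower and 1 higher. Some cytokinin response regulators were higher: ARR7 (AT1G19050) had 2198, 2234 and 2197 normalised reads in wrky-qm, against 413, 423 and 390.1 in Col-0_1, ARR5 (AT3G48100) averaged 923 ± 19.0 in wrky-qm and 273 ± 31.2 in Col-0_1, and 7 of 18 were 2-fold higher and 1 lower (median 0.51). Ethylene synthesis split within the pathway, with ACS6 (AT4G11280) at 2259, 2396 and 2636 normalised reads in wrky-qm, against 656, 606 and 630.3 in Col-0_1 and ACO1 (AT2G19590), the next enzyme, at 465, 462 and 470.1 normalised reads in wrky-qm, against 1425, 1439.8 and 1518 in Col-0_1. ACS6 had 1451, 1515 and 1492 in Col-0_2, where its change was 0.71, under 2-fold. Of 20 ethylene genes, 4 were 2-fold higher and 2 lower, against Col-0_2 2 and 5. Of 34 auxin genes, 5 were 2-fold higher and 1 lower (14.7% and 2.94%, against 8.19% and 3.52% of all genes), and against Col-0_2 2 and 3. The medians of the auxin, ethylene, gibberellin, nitrate, senescence and CC-type glutaredoxin lists lay between 0.02 and 0.09, and each took the other sign under quantile normalization, so no direction is given for these lists.

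Some stress lists rose in part. RRTF1 (AT4G34410), an ERF factor of redox signals, had 130.4, 149 and 130.2 normalised reads in wrky-qm, against 0.962, 0 and 0 in Col-0_1. CRK10 (AT4G23180) averaged 9513 ± 64.4 in wrky-qm and 1254 ± 106 in Col-0_1, and DIC2 (AT4G24570), a mitochondrial carrier, had 1537, 1708 and 1671 normalised reads in wrky-qm, against 166, 185 and 184 in Col-0_1, but 1349.5, 1342 and 1319 in Col-0_2, so its rise rests on Col-0_1. In the mitochondrial and oxidative stress list 6 of 16 were 2-fold higher and none lower. Heat shock genes were 2-fold higher in 4 of 21 cases (19%, against 8.19% of all genes), led by HSFA6B (AT3G22830), a heat factor also induced by abscisic acid, with 719, 769 and 740.4 normalised reads in wrky-qm, against 123, 129 and 101 in Col-0_1. In the endoplasmic reticulum list NAC062 (AT3G49530) and BZIP60 (AT1G42990), transcription factors of the unfolded protein response, averaged 3749 ± 80.8 in wrky-qm and 924 ± 43.8 in Col-0_1 and 3853 ± 163 in wrky-qm and 1082 ± 46.1 in Col-0_1, while the list median was 0. Enzymes that scavenge reactive oxygen were lower in 1 of 25 cases, FSD1 (AT4G25100), an iron superoxide dismutase, with 26973, 31419 and 30224 normalised reads in wrky-qm, against 62072, 63914 and 60963 in Col-0_1. MYB94 (AT3G47600), a wax regulator, had 1627, 1758 and 1685 normalised reads in wrky-qm, against 348, 264 and 283 in Col-0_1. Of 23 wax and cutin genes, 3 were 2-fold higher and 2 lower (13% and 8.7%, against 8.19% and 3.52% of all genes). NAP (AT1G69490), a senescence factor, had 734, 828 and 697 normalised reads in wrky-qm, against 134, 112 and 98.9 in Col-0_1, while SAG13 (AT2G29350) had 9.4, 6.14 and 5.77 normalised reads in wrky-qm, against 76.2, 58.8 and 68.4 in Col-0_1, and 5 of 18 senescence genes were 2-fold higher and 3 lower. Against Col-0_2, 2 were higher and 6 lower, with a median of -0.22, so the balance of these calls turned with the wild type.

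In the remaining lists, 2-fold changes are read against 8.19% of all genes higher and 3.52% lower. SEP3 (AT1G24260), a floral organ gene, had 42.2, 36.7 and 23.0 normalised reads in wrky-qm, against 370.5, 314 and 401 in Col-0_1, and 1125, 1192 and 1093 in Col-0_2, in a list of 20 with 3 higher and 3 lower (15% each). BOA (AT5G59570) and PRR9 (AT2G46790), of the clock, averaged 534 ± 36.6 in wrky-qm and 161 ± 24.8 in Col-0_1 and 1696 ± 116 in wrky-qm and 802 ± 67.0 in Col-0_1, and were the 2 of 19 clock genes 2-fold higher, while against Col-0_2 5 were. Light signalling had 2 of 23 higher and 1 lower, cell wall genes 3 of 27 higher, phenylpropanoid genes 1 of 17 higher, aquaporins 1 of 18 lower, tau-class glutathione transferases 1 of 22 lower, chlorophyll genes 1 of 15 lower, CDK inhibitors 1 of 10 lower, plant defensins 3 of 11 lower (27.3%), and CC-type glutaredoxins neither of 2. Only 3 of the 18 symbols of the glutaredoxin list matched a gene, so it does not describe the family. The glutaredoxin GRX480, with a log2 fold change of 4.73 ± 0.59, was counted with the pathogenesis-related outputs.

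**Figure D5:**
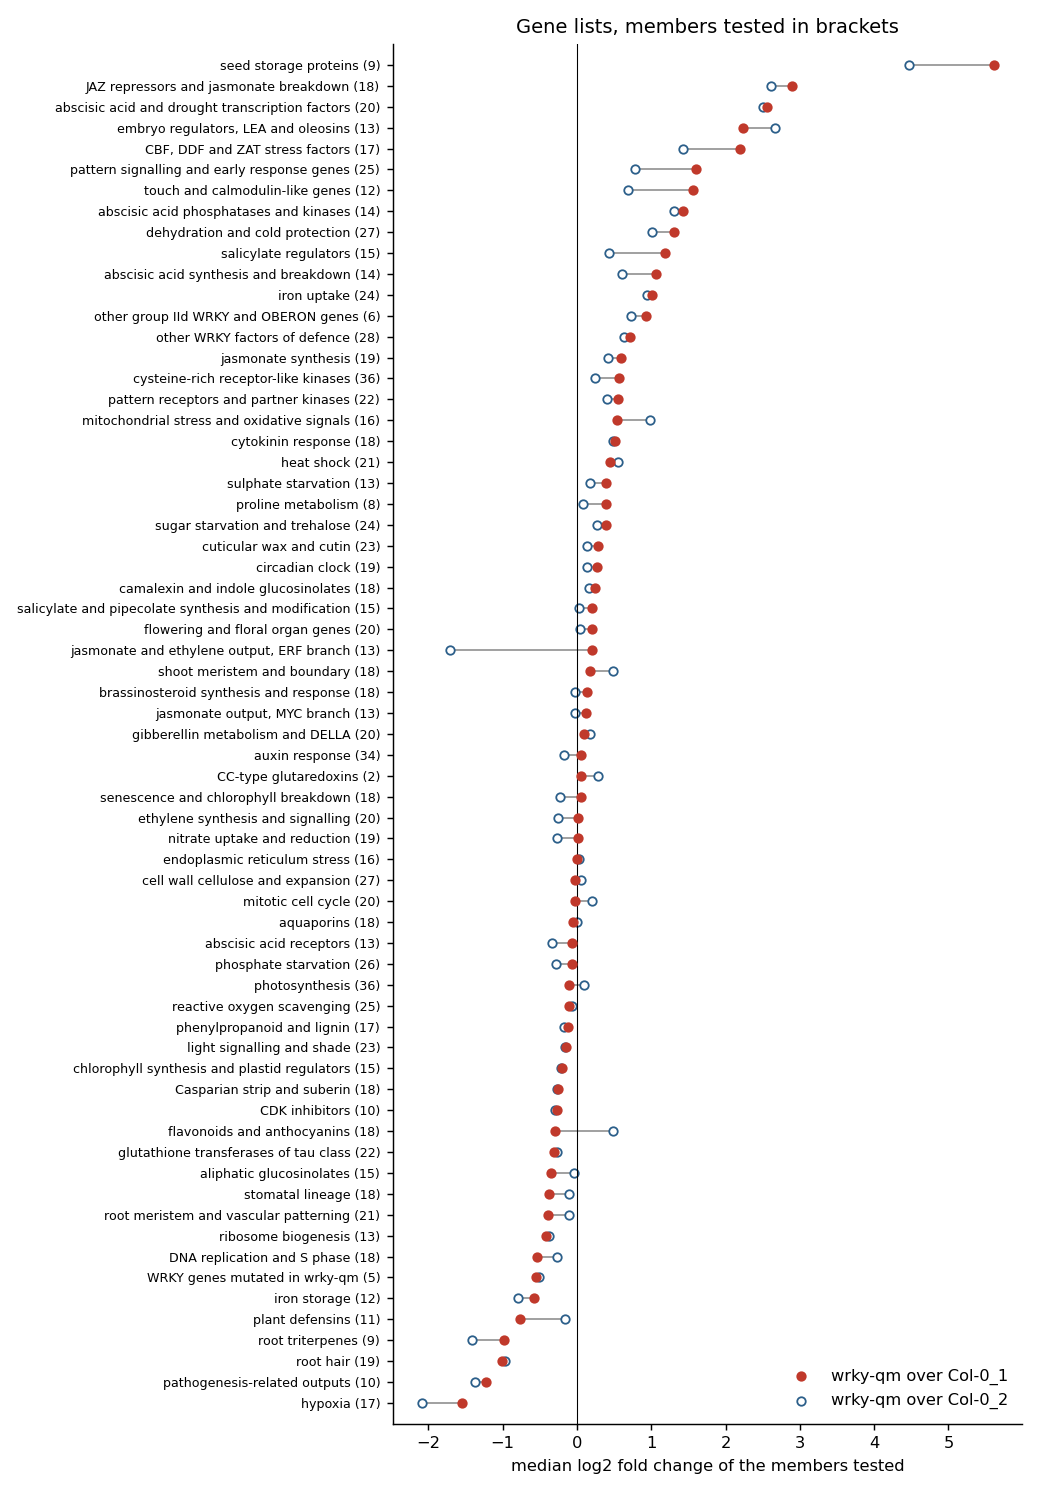
Each row is 1 of 65 gene lists, with the number of members tested in brackets. Filled points give the median log2 fold change of wrky-qm over Col-0_1 and open points that over Col-0_2. Jasmonate repressors (2.90), abscisic acid transcription factors (2.56) and seed lists lie at the top and the hypoxia list (-1.54) at the bottom, and the ERF branch has the widest gap between the points (0.21 and -1.70). Members listed at 0 in 1 group are counted: without them the median was 0.04 for the ERF branch, 0.81 for iron uptake, 1.36 for abscisic acid synthesis and 2.14 for the embryo list.

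Outside the lists, the largest rises and falls included genes with little annotation. AT5G45630 (AT5G45630), annotated as a senescence regulator of unknown function, had 1815, 1779 and 1731 normalised reads in wrky-qm, against 4.68, 15.1 and 2.55 in Col-0_1, a log2 fold change of 8.01 ± 0.37, and AT2G17680 (AT2G17680), a DUF241 protein, had 385, 377 and 305 normalised reads in wrky-qm, against 0, 0 and 1.88 in Col-0_1. BGLU19 (AT3G21370), a beta-glucosidase, had 676, 698 and 679.5 normalised reads in wrky-qm, against 2.85, 0.868 and 3.7 in Col-0_1, and 94.9, 109.8 and 101 in Col-0_2. Among the falls, MES10 (AT3G50440), a methylesterase family member, had 87.9, 73.5 and 69.4 normalised reads in wrky-qm, against 1703, 1772 and 1783 in Col-0_1, and PAP14 (AT2G46880), a purple acid phosphatase, averaged 12.8 ± 9.48 in wrky-qm and 231 ± 29.2 in Col-0_1. AT2G16005 (AT2G16005), an MD-2-related lipid recognition protein, averaged 4.17 ± 5.02 in wrky-qm and 86.8 ± 17 in Col-0_1. For 2 of the 10 largest falls Col-0_1 alone was high: AT3G01345 (AT3G01345) had 5.68, 0.017 and 3.87 normalised reads in wrky-qm, against 422, 416 and 469 in Col-0_1, and 9.99, 1.05 and 6.49 in Col-0_2, and AT2G10965 (AT2G10965) was listed at 0 in all wrky-qm and Col-0_2 libraries, with 96.8, 82.7 and 116 in Col-0_1.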

How the data were processed

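RNA from whole seedlings was measured in 3 wrky-qm, 3 Col-0_1 and 3 Col-0_2 libraries. Per the labels' protocols, RNA was taken with TRIzol and sequenced on an Illumina NovaSeq. Tools listed by the submitters' processing notes are HISAT2, edgeR and bcl2fastq, and the build is TAIR10. Roles, versions, annotation and strandedness are not given in the sources used here. The table deposited by the authors holds 1 signal value per gene and library, of a unit not stated, which has the form of read counts brought to a common library size by the authors' edgeR step, called normalised reads here. Such values are adjusted within groups, so replicate spread may differ from that of raw counts, and the original depth is unknown. Values under 1e-06 were set to 0.

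A gene was kept at a mean of at least 1 in wrky-qm or Col-0_1, log2(value + 1) was taken, and limma 3.58.1 (R 4.3.3) was fitted with an intensity trend to the 6 libraries, two-sided, with Benjamini-Hochberg adjustment. A count test was not possible. The fit was tested on simulated data. Gene names, neighbours and upstream windows came from RefSeq TAIR10.1, of which windows alone use coordinates, and the deposited table has none. Windows overlap no other gene in the 7 shown. Of 1271 list symbols, 76 did not match. The members and the 65 lists were chosen with earlier results of these data known, and the lists were written from general knowledge. Named genes were the mutated and related genes, the 10 largest rises and falls with groups apart and a mean of at least 50, up to 4 changed members per list by size, and neighbours of the mutated loci. Other members named, chosen after their values were seen, are VSP2, ICS1, IRT1, FRO2, FER1, ADH1, RAP2.12, RAP2.2, RAP2.3, LRX1, COW1, MCM2, PCNA1 and KNAT2. Alternatives were the pseudocount, the filter, the scaling, the libraries in the fit, the trend, a replicate term, the wild-type set and leaving out each library.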

Additional observations from a re-analysis of the deposited data

How the results depend on the processing

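The counts of genes called stayed within 1.5 times under all 17 alternatives. Quantile normalization gave 11852 called genes in place of 10848. Against Col-0_2 it was 11627, with both wild-type sets averaged 12011 (1929 higher and 1015 lower at 2-fold), with all 15 libraries in the fit 10172, and without the intensity trend 8872. Leaving out each library in turn gave 9030 to 9417 called genes, 1884 to 1913 higher and 732 to 819 lower at 2-fold. Median-ratio scaling gave 1983 higher and 846 lower. The numbers 1 to 3 share only a label: deviations of same-numbered libraries correlated at -0.067, -0.0007 and -0.043, and with the replicate block 10506 genes were called, 1957 higher and 834 lower at 2-fold. Of the 224 named genes, 215 kept their side of the threshold under quantile normalization and 223 with the replicate block. Of named genes past the adjusted p against at least 1 wild-type set, signs reversed against Col-0_2 in PYL6 (-0.11), MYB76 (0.20), CDC20.1 (0.37), PIP1B (0.15), GSTU20 (0.22), GRXS13 (-0.60) and PDF2.2 (-0.09), and against the mean of both sets in CDC20.1 (0.17) and GRXS13 (-0.28). HINKEL, HORST, ICE1 and MLO13, past it against neither set, also changed sign. The cause was not tested beyond the change of wild type that these settings make. The table gives no raw counts, so depth limits are unknown, and genes of few reads, such as WRKY74 and PR1, rest on values that 1 library can move.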

Other observations

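Genes called 2-fold higher also stood side by side. In the order of RefSeq genes, leaving out genes not tested, 15 runs of at least 4 neighbouring genes were all 2-fold higher in wrky-qm, 63 genes in all, and no such run was lower. With 8.19% of all genes called 2-fold higher and 3.52% lower, runs of lower genes are the rarer by these shares alone. Whether the runs exceed what the shares give was not tested. One run on chromosome 4 held the tandem kinases CRK12, CRK13, CRK14 and CRK15, with log2 fold changes of 2.5, 2.91, 4.03 and 2.27, of which CRK12 changed by 0.09 against Col-0_2. On chromosome 1 the wall-associated kinase genes WAKL6, WAKL1, WAKL2 and WAKL4 changed by 2.76, 1.11, 3.67 and 2.08, and WAKL1 by 0.63 against Col-0_2. On chromosome 4 WRKY28, with 121, 116 and 152 normalised reads in wrky-qm, against 27.6, 10.7 and 35.1 in Col-0_1, preceded AT4G18205 and the purine permease genes PUP8, PUP7 and PUP10, which changed by 2.52, 2.45, 1.72 and 1.69. Against Col-0_2, PUP7 and AT4G18205 changed by 0.37 and 0.89, under 2-fold. Tandem copies can share reads, and how the authors counted these is not given in the sources used here. These genes were chosen after their values were seen.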
